A study of Mus musculus with 9 samples.

Results

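Acta2, Tagln, Myh11, Cnn1, Myl9, Tpm2, Lmod1, Smtn, Pln and Myocd are the 10 genes of the smooth muscle contractile programme described here. They were taken by symbol, and all 10 were found among the 46517 gene rows of the count table, of which 28386 held at least 1 read. They were read in single cells of vascular fragments from the brains of adult mice, which had been dissociated and sorted into 384-well plates. Libraries were made with Smart-seq2, which copies whole transcripts and adds no molecular identifiers. Each of the 1235 cells bore 1 of 9 type labels, none of them spelled out in the labels' own text: 41 aSMC, 29 vSMC, 54 PC, 9 FB, 116 aEC, 787 capilEC, 45 vEC, 17 CP-EC and 137 MG. No treatment or genotype was named. Strain, sex, age in weeks and number of animals were not given in the sources used here. Each label was deposited as 1 sample, so a type has no replicates, no test between types was possible, and each interval below covers counting error only.

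Smooth muscle cells and pericytes are the mural cells of vessels. Contraction of smooth muscle rests on sliding of actin thin filaments along myosin thick filaments, and it is switched on when calcium and calmodulin lead to phosphorylation of the myosin regulatory light chain. Smooth muscle coats arterioles and venules, whereas pericytes sit along capillaries. Many contractile genes are known to be driven by serum response factor (SRF), which binds the CArG box in DNA, and by its muscle partner myocardin.

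By the GENCODE annotation of GRCm38, all are protein coding: Acta2 at chr19:34241090-34255590 on the minus strand, Tagln at chr9:45929619-45936058 on the minus strand, Myh11 at chr16:14194535-14291372 on the minus strand and Cnn1 at chr9:22099216-22109630 on the plus strand. Myl9 lies at chr2:156775420-156781658 on the plus strand, Tpm2 at chr4:43514711-43523765 on the minus strand, and Lmod1 at chr1:135324807-135368065 on the plus strand. Smtn lies at chr11:3517523-3540612 on the minus strand, Pln at chr10:53337667-53345987 on the plus strand, and Myocd at chr11:65176561-65269989 on the minus strand. The submitters' processing notes name GRCm38 and GRCm39 without saying which served the counts, so these positions describe the genes and not the reads.

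RefSeq promoter windows of GRCm38.p6, from 250 bases before to 50 bases after the RefSeq start of the gene, were held for 7 of the 10 genes and not for Tagln, Myh11 and Myocd. They were searched for the CArG box, which reads alike on both strands, and for a CArG-like box with 1 G or C in its centre. A CArG box was found in 1 of the 7 windows, that of Myl9, and in 1.629% of 32851 windows of the same length. A CArG-like box was found in 2 of the 7, those of Acta2 and Myl9, and in 8.499% of all windows. These 2 are shown because they belong to the members most abundant per length in aSMC and because they hold the matches, which are in capitals, do not overlap and describe letters only. In Acta2 the CArG-like matches begin 84 and 34 bases before the start. In Myl9 the CArG box begins 161 bases and the CArG-like box 99 bases before the start. These distances count from the RefSeq starts, which lie 217 bases (Acta2) and 44 bases (Myl9) inside the GENCODE genes given above.
Acta2, chr19:34255324-34255623, minus strand, 5′ to 3′: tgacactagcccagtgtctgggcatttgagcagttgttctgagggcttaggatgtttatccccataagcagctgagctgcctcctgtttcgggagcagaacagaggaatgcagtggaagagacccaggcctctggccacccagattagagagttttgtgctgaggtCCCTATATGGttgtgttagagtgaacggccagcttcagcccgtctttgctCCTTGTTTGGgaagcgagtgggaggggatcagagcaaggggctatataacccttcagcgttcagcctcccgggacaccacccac
Myl9, chr2:156775214-156775513, plus strand, 5′ to 3′: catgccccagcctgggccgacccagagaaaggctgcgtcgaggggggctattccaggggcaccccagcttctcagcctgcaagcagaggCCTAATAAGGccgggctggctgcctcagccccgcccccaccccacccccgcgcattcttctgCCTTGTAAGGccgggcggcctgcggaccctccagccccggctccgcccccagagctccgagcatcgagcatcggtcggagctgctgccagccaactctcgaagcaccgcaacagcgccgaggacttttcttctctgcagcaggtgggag

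The cells held 285520064 reads, with 100021 to 854836 reads per cell on 4 plates, s169s, s480s, s482s and s483s. There were 0 cells with counts identical to those of another cell. The type sums were 11629056 reads in aSMC, 6293852 in vSMC and 10701951 in PC, and the others lay between 2556671 reads in FB and 172998640 in capilEC. The labels were deposited with these same counts, and whether the 10 genes served in assigning them was not known here. Differences of the 10 genes between labels may thus be set in part by the labelling and are no independent check of it. Labels were checked against marker lists that hold none of the 10 genes. The sum of 7 pericyte markers was 1282 CPM in aSMC, 7804 CPM in vSMC and 14051 CPM in PC, where CPM is counts per 1000000 reads of a type, with 0 of the 7 markers unread in each of them. Kcnj8 and Abcc9, subunits of the ATP-sensitive potassium channel of pericytes, had 0.688 and 0.516 CPM in aSMC, against 1876 and 1317 CPM in PC. In vSMC they had 239 and 127 CPM, so vSMC cells held these 2 genes, which were near 0 in aSMC. The list as a whole was not near 0 there, and its highest gene had 359 CPM in aSMC. The sum of 10 endothelial markers was 1072 CPM in aSMC, 3121 CPM in vSMC and 3186 CPM in PC, against 17855 CPM in capilEC, and that of 7 microglial markers was 152 CPM in aSMC, 471 CPM in vSMC and 523 CPM in PC. The part of pericyte and microglial markers in the differences below was not tested. Of the PC cells, 2 had pericyte marker sums of 49.0 and 138 CPM while the third lowest had 4526 CPM. Without those 2, PC had 275 CPM of Acta2 and 3214 CPM of Myl9, in place of 257 and 2997 CPM.

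All 10 genes were highest in aSMC of the 9 types. Summed over the genes, they took 2.43% of the reads of aSMC, 1.18% of vSMC and 0.393% of PC, against 0.0293% of capilEC and 0.0110% of MG. A gene was called higher when CPM + 5 differed 4-fold (2 log2 units) between groups and the group with more of it had no less than 50 CPM and reads in no fewer than 50% of cells. By this size rule 9 of the 10 were higher in aSMC than in PC, where 1.22% of 12252 measured genes met it. Between aSMC and vSMC 3 met it, Cnn1, Lmod1 and Smtn, against 0.869% of 11623 genes. Both counts were the same, 9 and 3, after 1 aSMC, 2 vSMC and 8 PC cells rich in endothelial markers were left out. The members differed among themselves: Cnn1 stood above 1.51 CPM in aSMC alone, Acta2 and Tpm2 stepped down through vSMC to PC, Myl9 was high in all 3 mural labels, and Smtn was also read in endothelial types.

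**Figure D1:**
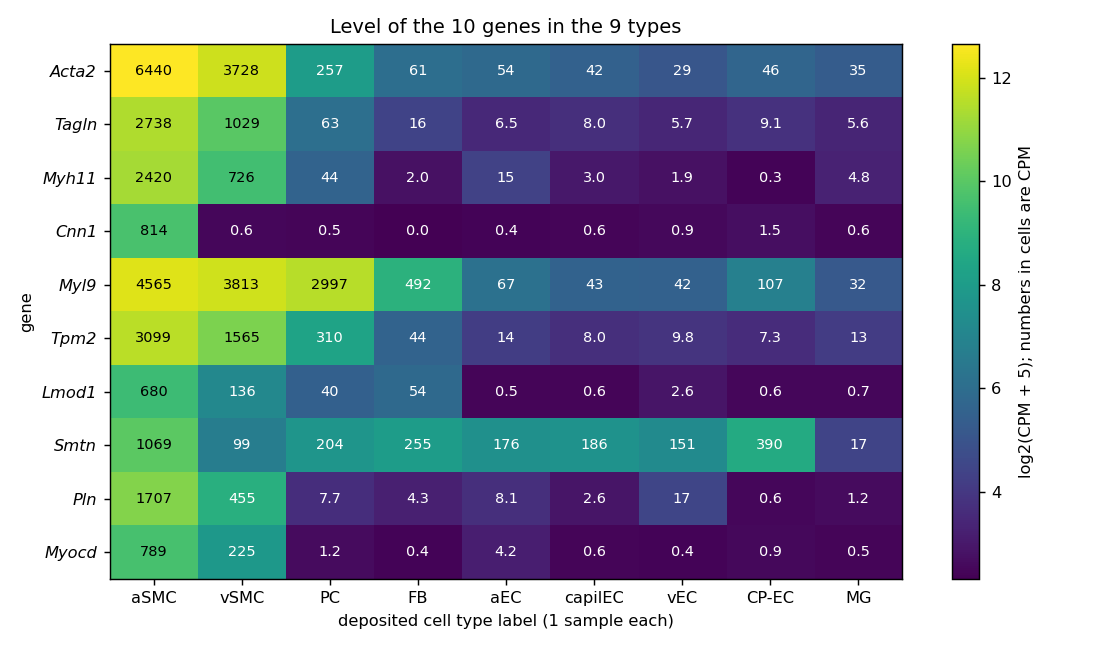
CPM of the summed counts of each of the 10 genes (rows) in each of the 9 type labels (columns), printed in each field and coloured by log2(CPM + 5). The aSMC column holds the highest value of every row. Myl9 is at 3813 CPM in vSMC and 2997 CPM in PC, Cnn1 is at or below 1.51 CPM outside aSMC, and Smtn lies between 151 and 390 CPM in FB, aEC, capilEC, vEC and CP-EC.

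Among the thin filament genes, Acta2, which encodes smooth muscle alpha actin, had 6440 CPM in aSMC (95% Poisson interval 6394 to 6486), 3728 CPM in vSMC (3681 to 3776) and 257 CPM in PC (247 to 267). The other types lay between 29.1 CPM in vEC and 61.0 CPM in FB. Acta2 thus stood at 3 separate levels along the mural labels, and the counting intervals of none of these neighbours overlapped. Its aSMC level was 25.1 times that of PC, with a log2 difference of 4.62 that ranged from 2.99 to 6.92 over the 4 plates. Without plate s480s PC had 131 CPM and the difference was 5.64. Against vSMC the log2 difference was 0.79, with 0.60 to 1.03 over the plates, short of the size rule.

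Tpm2, which encodes the beta tropomyosin that winds along the actin filament, had 3099 CPM in aSMC, 1565 CPM in vSMC and 310 CPM in PC. Its log2 difference was 3.30 between aSMC and PC and 0.98 between aSMC and vSMC. Between vSMC and PC it was 2.32, and 1.81 without plate s169s, which is below the size rule. The other 6 types held 7.25 to 44.2 CPM, so Tpm2 was low outside the mural labels and FB.

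Cnn1 encodes calponin, an actin-bound protein that slows the myosin ATPase, and it was the most restricted member. It had 814 CPM in aSMC (797 to 830), 0.636 CPM in vSMC from 4 reads and 0.467 CPM in PC from 5 reads. CP-EC was next after aSMC with 1.51 CPM from 5 reads (0.491 to 3.53), and FB had 0 reads, which allows up to 1.17 CPM. From the second type downwards no neighbouring counting intervals were apart. Its level in vSMC was close to the 0.578 CPM of capilEC, and the log2 difference between aSMC and vSMC was 7.18, with 6.55 to 7.83 over the plates.

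Lmod1, which encodes leiomodin, a protein that seeds actin filaments, had 680 CPM in aSMC, 136 CPM in vSMC, 40.2 CPM in PC and 53.6 CPM in FB. In FB 1 cell gave 65.7% of the 137 reads, and FB had 22.2 CPM without it. The endothelial types and MG had 0.479 to 2.55 CPM. Lmod1 met the size rule against both PC (3.92) and vSMC (2.28). Plate s482s held 373 of the 430 PC reads, and without it PC had 10.4 CPM and the difference from PC was 5.75. The call against vSMC was lost without plate s480s, where the log2 difference was 1.83, and also with equal weight per cell. A single cell gave 35.3% of the vSMC reads.

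Tagln, which encodes the actin-binding protein transgelin, had 2738 CPM in aSMC, 1029 CPM in vSMC and 63.1 CPM in PC, and 5.58 to 16.0 CPM in the other types. Its log2 difference was 5.33 between aSMC and PC and 1.41 between aSMC and vSMC. The PC level was 36.6 CPM without 1 cell that held 42.7% of the reads. In the annotation, 58.4% of the 50-base windows of Tagln transcripts also occur in Gm48529 or Pcsk7 on the opposite strand, and Smart-seq2 does not mark strand, so reads of Tagln and of these genes cannot be told apart there. Gm48529 had no row in the count table, and Pcsk7 had 69.0 CPM in aSMC, 40.8 CPM in vSMC and 0.841 CPM in PC.

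Smtn, which encodes smoothelin, a protein bound to actin filaments of contractile cells, followed another order. It had 1069 CPM in aSMC, 99.1 CPM in vSMC and 204 CPM in PC, and CP-EC (390 CPM), FB (255), capilEC (186), aEC (176) and vEC (151) all stood above vSMC. MG was lowest with 16.7 CPM, and no 2 neighbours in the order had overlapping counting intervals. In capilEC 167 of 787 cells (21.2%) reached 100 CPM of Smtn, a level at which 3 of 137 MG cells (2.19%) stood. The Smtn level of PC was 208 CPM after 8 PC cells rich in endothelial markers were left out. Without plate s480s vSMC had 45.8 CPM. Single cells gave 61.5% of the vSMC reads (39.2 CPM without that cell) and 40.5% of the CP-EC reads (259 CPM without). Plate s483s held 1285 of the 1290 CP-EC reads. Without it CP-EC had 3.56 CPM from 7 cells, below the 94.1 CPM of vSMC without the same plate. In capilEC Smtn ran from 35.5 CPM on plate s169s to 304 CPM on plate s480s. Gm11946, an opposite-strand gene that shares 9.46% of the Smtn windows, had 281 CPM in aSMC, 52.7 CPM in vSMC and 53.7 CPM in PC.

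Of the thick filament genes, Myh11, the smooth muscle myosin heavy chain, had 2420 CPM in aSMC, 726 CPM in vSMC and 44.1 CPM in PC. The remaining types had 0.302 to 15.3 CPM, with aEC the highest of them. That rank rested on 1 cell, which gave 91.4% of the 479 aEC reads, and aEC had 1.33 CPM without it. Plate s482s held 448 of these reads. Without that plate aEC had 1.57 CPM, below the 6.11 CPM of MG without the same plate. The log2 difference was 5.63 between aSMC and PC, and 1.73 between aSMC and vSMC. PC stood at 23.5 CPM without 1 cell that gave 47.5% of its Myh11 reads, and the difference from PC was 6.63 without plate s483s.

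Myl9, a myosin regulatory light chain, was the member shared most widely by the mural labels. It had 4565 CPM in aSMC, 3813 CPM in vSMC and 2997 CPM in PC, and 492 CPM in FB. The log2 difference was 0.61 between aSMC and PC, with 0.46 to 0.74 over the plates, and 0.26 between aSMC and vSMC. Myl9 was thus the 1 member of 10 that did not meet the size rule against PC, although aSMC was higher on 4 of 4 plates. Its 107 CPM in CP-EC came to 78.2% from 1 cell and was 24.1 CPM without it, and aEC, capilEC, vEC and MG had 32.4 to 66.9 CPM.

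Pln encodes phospholamban, which restrains the calcium pump of the sarcoplasmic reticulum. It had 1707 CPM in aSMC, 455 CPM in vSMC and 7.66 CPM in PC, and vEC had 17.4 CPM. A single vEC cell gave 89.0% of the 245 vEC reads, and vEC had 2.00 CPM without it. Plate s482s held 221 of these reads, and without that plate vEC had 2.37 CPM. One PC cell gave 85.4% of the PC reads, without which PC had 1.13 CPM, below the 2.55 CPM of capilEC. The log2 difference was 7.08 between aSMC and PC, with 5.03 to 8.64 over the 4 plates and 6.49 to 8.32 when 1 plate was left out. Between aSMC and vSMC it was 1.90. The size rule against vSMC was met without plate s169s (2.40), without plate s483s (2.14) or with TMM scaling (2.01). Of the Pln windows 56.2% also occur in Gm47644 or Cep85l on the opposite strand, Gm47644 had no row, and Cep85l had 51.9 CPM in aSMC, 39.9 CPM in vSMC and 125 CPM in PC.

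Myocd encodes myocardin, the partner of SRF. It had 789 CPM in aSMC, 225 CPM in vSMC and 1.21 CPM in PC from 13 reads, against 0.561 CPM in capilEC and 0.460 CPM in MG. The PC interval of 0.647 to 2.08 CPM overlapped that of capilEC only in part, 0.455 to 0.684 CPM. The log2 difference was 7.00 between aSMC and PC and 1.79 between aSMC and vSMC. Of the types outside the mural ones aEC was highest with 4.25 CPM, but 1 cell gave 81.2% of its 133 reads. Without that cell aEC had 0.807 CPM. Plate s483s held 122 of the 133 reads. Without that plate aEC had 0.537 CPM and capilEC 0.417 CPM.

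Scaled by exon length, Myl9 was the most abundant member in all 3 mural labels, with 3929 CPM per kilobase in aSMC, 3281 in vSMC and 2580 in PC. Acta2 came next with 2933 CPM per kilobase in aSMC, 1698 in vSMC and 117 in PC. Tagln (1377) and Tpm2 (1065) followed in aSMC, and the least abundant there was Myocd with 123 CPM per kilobase. Myl9 made up 18.8% of the summed CPM of the 10 genes in aSMC, 32.4% in vSMC and 76.4% in PC. The 10 genes in PC were thus mostly Myl9.

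A read of some members, such as Acta2 and Myl9, was common even in cells that should lack it. For others, such as Cnn1 and Myocd, it was not. After each cell was thinned to 100000 reads, Acta2 had a read in 100% of aSMC cells, 100% of vSMC cells and 68.5% of PC cells (exact binomial interval 54.4 to 80.5%), against 66.8% in capilEC (63.4 to 70.1%) and 68.6% in MG (60.1 to 76.3%). Median depths before thinning were 269635 reads in aSMC, 176971 in vSMC, 158325 in PC, 192941 in capilEC and 232674 in MG. The share of PC cells with an Acta2 read was therefore within the background of types not known for contraction. Tagln (40.7%, against 37.5% of capilEC cells) and Pln (11.1%, against 15.4%) in PC were also at that background. Cnn1 was read in 3.45% of vSMC cells and 5.56% of PC cells, against 6.10% of capilEC cells, which is again background, and in 65.9% of aSMC cells. Before thinning, the Cnn1 shares were 70.7% in aSMC, 6.90% in vSMC and 9.26% in PC, against 10.4% in capilEC. Myl9 (98.1%, against 73.4%) and Tpm2 (61.1%, against 39.6%) in PC stood above capilEC, and Myocd (18.5%, against 5.34%) rested on 13 PC reads in all.

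**Figure D2:**
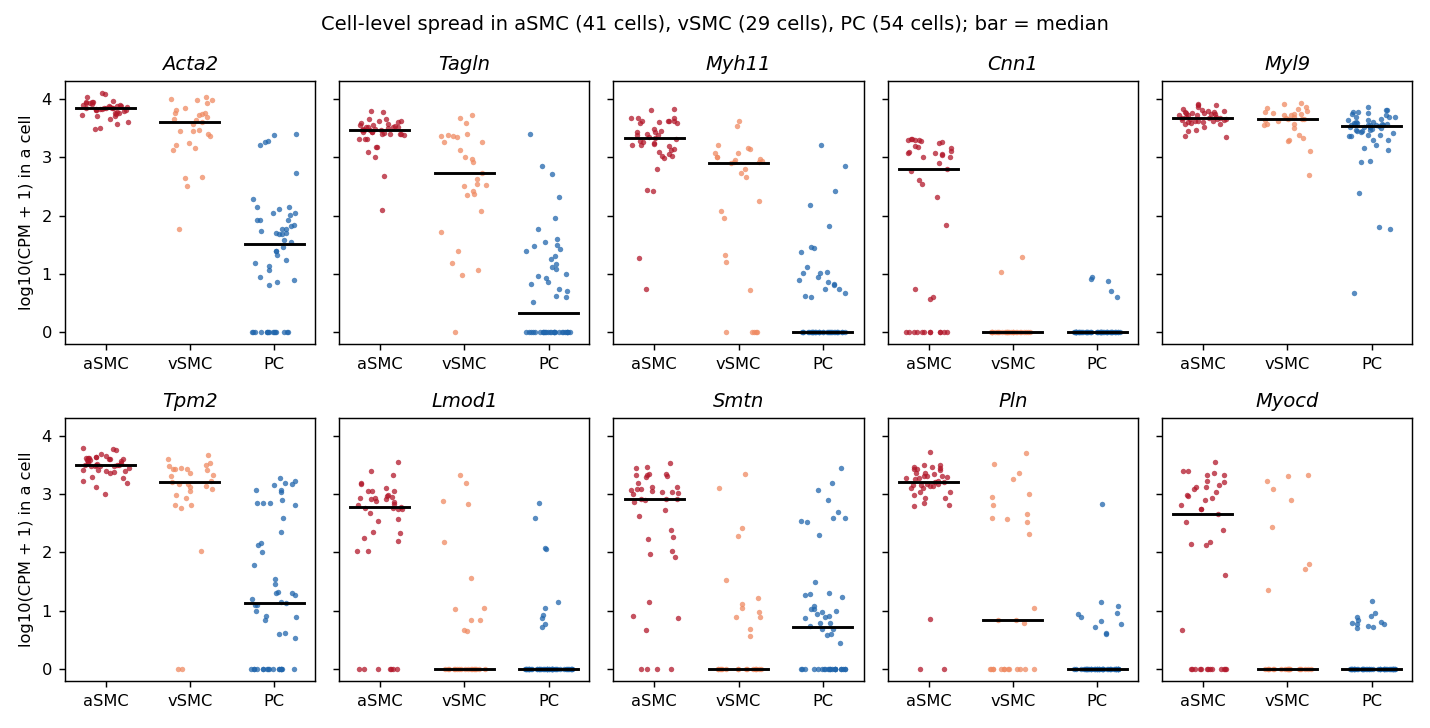
Each point is the level of a gene in 1 cell, as log10(CPM + 1), in aSMC (41 cells), vSMC (29 cells) and PC (54 cells), with the median as a bar. Acta2 separates all aSMC cells from all PC cells, Cnn1 reaches 100 CPM in 25 aSMC cells and in 0 vSMC or PC cells, and Myl9 overlaps in all 3. The labels may rest in part on such genes, so this separation is no independent check of them.

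Single cells showed whether a label's level was shared by its cells. Acta2 ranged from 3078 to 12603 CPM in aSMC cells (median 7022), from 57.7 to 10742 CPM in vSMC cells (median 3961) and from 0 to 2505 CPM in PC cells (median 31.4). All 54 PC cells lay below the lowest aSMC cell, while 16 of 29 vSMC cells lay at or above it. Myl9 ranged from 2230 to 8252 CPM in aSMC cells (median 4755), from 499 to 8562 CPM in vSMC cells (median 4571) and from 3.63 to 7207 CPM in PC cells (median 3375). The 3 groups overlapped for Myl9, with 43 of 54 PC cells at or above the lowest aSMC cell.

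Tagln and Tpm2 were present in every aSMC cell and uneven in the other labels. Tagln ranged from 125 to 6146 CPM in aSMC cells (median 2932), from 0 to 5191 CPM in vSMC cells (median 536) and from 0 to 2526 CPM in PC cells (median 1.17). Tpm2 ranged from 982 to 6029 CPM in aSMC cells (median 3181), from 0 to 4552 CPM in vSMC cells (median 1602) and from 0 to 1868 CPM in PC cells (median 12.7). Of the PC cells, 18 reached 100 CPM of Tpm2 and 4 reached 100 CPM of Tagln, a level chosen after the values were seen.

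Myh11 was read in 41 of 41 aSMC cells, with 4.55 to 6658 CPM (median 2141), and 39 of them reached 100 CPM. In vSMC cells it ranged from 0 to 4212 CPM (median 785) and in PC cells from 0 to 1603 CPM (median 0). Pln ranged from 0 to 5243 CPM in aSMC cells (median 1624), from 0 to 4944 CPM in vSMC cells (median 5.95) and from 0 to 662 CPM in PC cells (median 0). Pln split the vSMC cells, since 12 of 29 reached 100 CPM and 13 had no read, whereas 38 of 41 aSMC cells and 1 of 54 PC cells reached 100 CPM.

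Cnn1, Lmod1, Smtn and Myocd were also uneven within aSMC. Cnn1 ranged from 0 to 2068 CPM over aSMC cells (median 618), with 12 of 41 cells at 0, from 0 to 18.4 CPM over vSMC cells and from 0 to 7.88 CPM over PC cells. Myocd ranged from 0 to 3521 CPM in aSMC cells (median 454), with 13 of 41 at 0, from 0 to 2144 CPM in vSMC cells (median 0) and from 0 to 13.7 CPM in PC cells (median 0). Both genes reached 100 CPM in 16 aSMC cells, out of 25 for Cnn1 and 26 for Myocd, so neither gene marked a subset of the other.

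Lmod1 ranged from 0 to 3527 CPM in aSMC cells (median 598), from 0 to 2091 CPM in vSMC cells (median 0) and from 0 to 697 CPM in PC cells (median 0). Smtn ranged from 0 to 3427 CPM in aSMC cells (median 828), from 0 to 2211 CPM in vSMC cells (median 0) and from 0 to 2774 CPM in PC cells (median 4.22). Lmod1 reached 100 CPM in 34 aSMC, 5 vSMC and 4 PC cells, and Smtn in 31 aSMC, 4 vSMC and 10 PC cells. All 25 aSMC cells that reached 100 CPM of Cnn1 also reached it for Lmod1. In vSMC, the 6 cells that reached 100 CPM of Myocd all reached it for Acta2, Myh11 and Tpm2, 3 did for Pln and 0 did for Lmod1 or Smtn.

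The summed level of the 10 genes per cell was 10389 to 47123 CPM in aSMC (median 25173), 3398 to 34984 CPM in vSMC (median 13477) and 109 to 10988 CPM in PC (median 4061). Of the vSMC cells, 17 of 29 reached the lowest aSMC cell, and 1 of 54 PC cells did. That PC cell, from plate s482s, had 1868 CPM of Acta2, 2526 CPM of Tagln, 5516 CPM of Myl9 and 1070 CPM of Tpm2, but 0 reads of Myh11, Cnn1, Lmod1, Pln and Myocd. Its pericyte marker sum was 13172 CPM and its endothelial marker sum 3192 CPM. Without it Tagln in PC had 36.6 CPM in place of 63.1 CPM. A median of 9 of the 10 genes was read in a thinned aSMC cell, 6 in a vSMC cell and 4 in a PC cell, against 3 in a capilEC cell. All 10 were read in 14 aSMC cells and also in 1 capilEC cell.

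**Figure D3:**
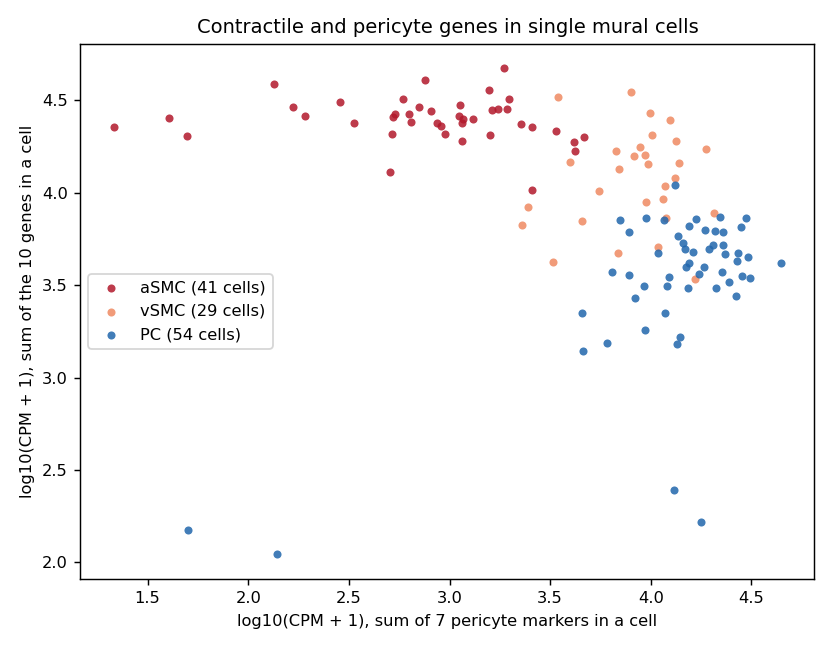
Each point is 1 cell, with the summed CPM of 7 pericyte markers on the x axis and that of the 10 contractile genes on the y axis, both as log10(CPM + 1), for aSMC, vSMC and PC. The aSMC cells lie high and to the left, the PC cells low and to the right, and vSMC cells between them with pericyte marker sums of 2302 to 20586 CPM.

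Over the cells of a label the members did not vary as a block. Spearman's correlation, given as a description over cells that share libraries and depth, had a median of 0.15 over 45 pairs in the 41 aSMC cells, with 32 pairs positive and a range from -0.40 to 0.93. In the 29 vSMC cells, 15 of 15 pairs of the genes read in at least 50% of cells were positive, with a median of 0.48. Within the 8 vSMC cells of plate s483s this did not hold for every pair. There Tpm2 with Pln was -0.43, Acta2 with Myh11 -0.26 and Myh11 with Pln -0.19. Acta2 was at -0.05 with Tpm2 and -0.02 with Tagln, and the remaining pairs were positive. In the 54 PC cells, 7 of 10 pairs were positive, with a median of 0.24 and the highest value, 0.60, for Acta2 with Tagln. Each label kept only genes read in at least 50% of its cells, so the medians cover different genes and cannot be compared between labels. The strongest pair in aSMC was Acta2 with Myl9 at 0.93, and it was 0.82 to 0.93 within the 4 plates. Acta2 with Tagln was 0.79, within plates 0.39 to 0.87, and Acta2 with Tpm2 was 0.78, within plates 0.44 to 0.75. Acta2 with Myocd was -0.40, within plates -0.46 to -0.09.

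Depth moved with these values. In aSMC cells the Spearman correlation of reads per cell was -0.72 with Acta2 CPM, -0.76 with Myl9 CPM and -0.48 with the summed level, and in vSMC cells it was -0.52 with the summed level. The part of depth in the correlations among members was not tested. The correlation of the summed level with the pericyte marker sum was -0.22 in aSMC, 0.09 in vSMC and 0.32 in PC, and with the endothelial marker sum it was 0.14 in aSMC, -0.14 in vSMC and -0.29 in PC.

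**Figure D4:**
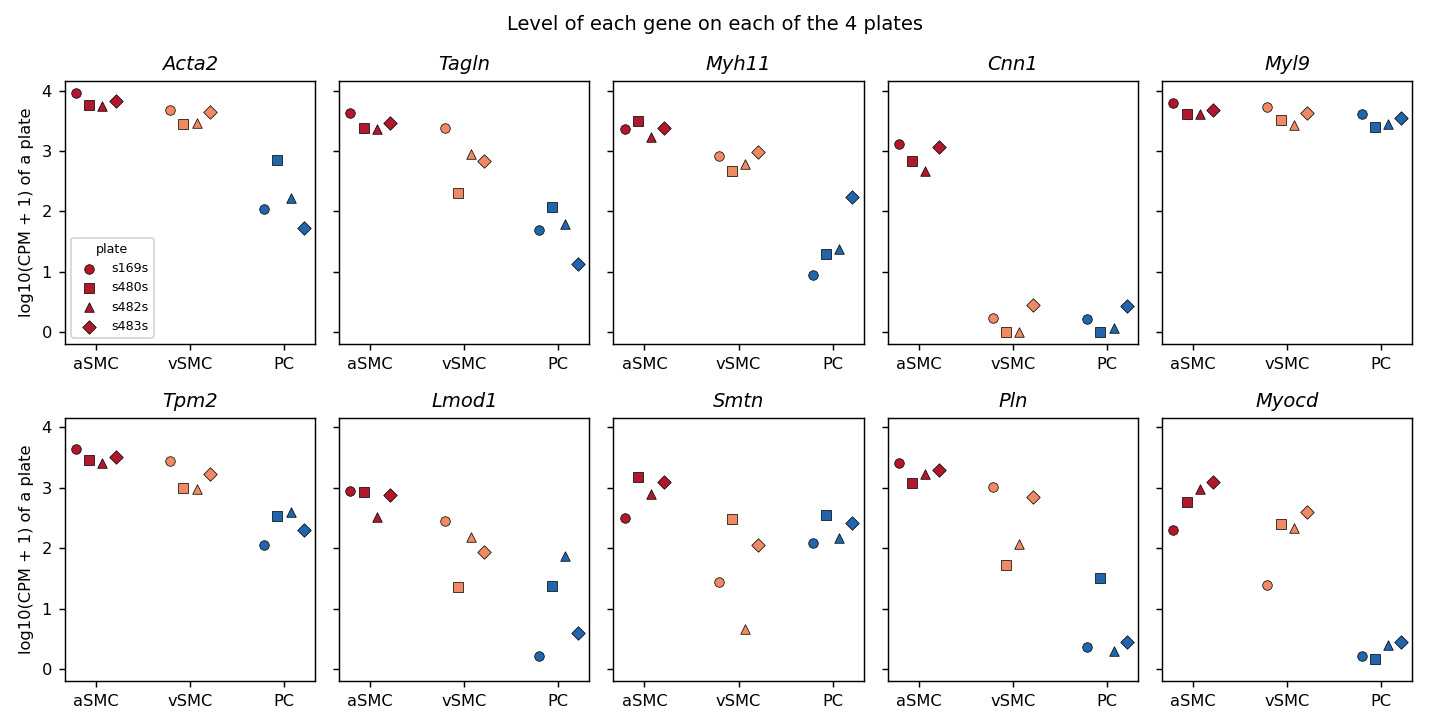
CPM of each gene summed over the cells of a label on each of the 4 plates, as log10(CPM + 1), with plates as symbols. Each of the 10 genes is higher in aSMC than in vSMC and PC on 4 of 4 plates, with the aSMC values of plate s169s highest for Acta2 and lowest for Smtn and Myocd.

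The order aSMC above vSMC and PC held on each of the 4 plates for all 10 genes. Plate s169s stood apart within aSMC, with 7 of the 41 cells. Acta2 there had 9121 CPM, against 5638 to 6819 CPM on the other plates, whereas Myocd had 197 CPM, against 586 to 1238 CPM, and Smtn 316 CPM, against 784 to 1500 CPM. In vSMC, Tagln had 2408 CPM on s169s and 204 to 877 CPM on the others, and Myocd 23.6 CPM on s169s and 215 to 394 CPM on the others. In PC, Acta2 had 722 CPM on s480s and 51.3 to 163 CPM on the others. The highest PC cells of s480s had 2505, 2440 and 1848 CPM of Acta2, and the next had 81.8 CPM, so few cells carried that level.

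Over the set, the median log2 difference of the members was 4.98 between aSMC and PC, where that of all measured genes was -0.15, and 1.76 between aSMC and vSMC, where it was -0.03. Between vSMC and PC, 5 of the 9 measured members met the size rule, namely Acta2, Tagln, Myh11, Tpm2 and Pln, against 0.272% of 12117 genes. Their median over the 9 was 3.83, against -0.09 for all genes. Not all of these 5 calls reached 4-fold on every plate. On s480s, with 5 vSMC cells, Acta2 had 2828 CPM in vSMC and 722 CPM in PC, and Tpm2 996 and 340 CPM. Tagln had 204 and 116 CPM there, Pln had 51.8 and 31.5 CPM, and each of these differences was under 4-fold. The lowest plate difference was 0.64 for Pln, 0.80 for Tagln, 1.29 for Tpm2 and 2.46 for Myh11. All 5 were higher in vSMC on 4 of 4 plates. Cnn1 was below 5 CPM in both labels, and Myocd had a difference of 5.21 but a read in 31.0% of vSMC cells. Smtn was lower in vSMC than in PC (-1.01), on 4 of 4 plates, but the difference was -0.19 with equal weight for every cell and -1.73 without plate s480s. Pln had a difference of 4.75 without plate s483s, where it no longer met the rule, nor did it when the share of cells was taken after thinning, which left 4 members called. Comparisons that share aSMC or PC are not independent of each other.

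Between the mural labels (mean of aSMC, vSMC and PC) and the endothelial ones (mean of aEC, capilEC and vEC), 6 members met the size rule against 1.12% of 12714 genes. Acta2 averaged 3475 CPM in mural and 41.4 CPM in endothelial labels, and Myl9 3792 CPM in mural and 50.3 CPM in endothelial labels. Smtn averaged 457 CPM in mural and 171 CPM in endothelial labels, a 2.63-fold difference of CPM + 5 that did not meet the rule. Cnn1, Lmod1 and Myocd differed by 5.55 to 5.68 but had a read in 29.0%, 47.6% and 40.5% of mural cells, averaged over labels. The median over the 10 was 5.89, where that of all genes was -0.03.

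Against whichever other type was highest for a gene, 2 members met the size rule in aSMC, Cnn1 (6.97) and Lmod1 (2.28), where 0.148% of 15494 genes did. The median over the 10 was 1.59, where that of all genes was -1.40. This count was unstable. It was 1 without plate s480s, when Lmod1 was lost, and 4 without plate s483s, when Smtn (2.35) and Pln (2.14) joined.

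**Figure D5:**
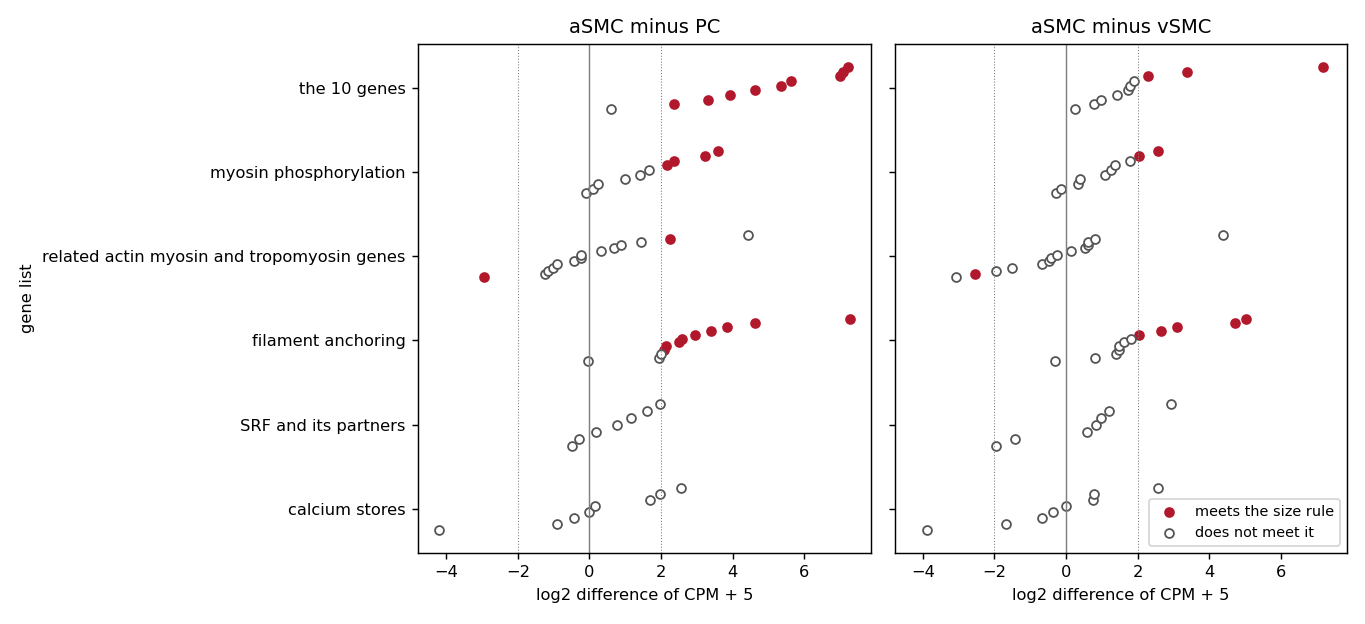
Log2 difference of CPM + 5 for each gene of the 10 and of 5 further lists (rows), for aSMC minus PC on the left and aSMC minus vSMC on the right. Filled points meet the size rule, and dotted lines mark 2 log2 units. The filament anchoring list holds 9 filled points against PC and 5 against vSMC, and the lists of SRF partners and calcium stores hold 0.

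Genes that work beside the 10 were taken from 5 lists. In the filament anchoring list, 9 of 12 measured genes were higher in aSMC than in PC and 0 were lower, with a median of 2.53, where 1.22% of all measured genes were higher. Pdlim3, a Z-line adaptor in striated muscle, had 917 CPM in aSMC, 326 CPM in vSMC and 0.934 CPM in PC. Csrp1, a LIM protein of the actin cytoskeleton, had 2334 CPM in aSMC, 66.6 CPM in vSMC and 89.4 CPM in PC. Like Cnn1 and Smtn, Csrp1 was thus high in aSMC and low in vSMC. Other called genes were Des (desmin, the muscle intermediate filament), Actn1 (actinin, which crosslinks actin), Flna (filamin A), Synm (synemin), Pdlim7 and Csrp2, with differences of 2.09 to 3.83. Against vSMC 5 of 12 were higher: Csrp1 (5.03), Synpo2 (4.72), Csrp2 (3.08), Pdlim7 (2.66) and Pdlim5 (2.04), with 0 lower and a median of 1.72, where 0.869% of all genes were higher. Synpo2, an actin-binding protein of the Z-line, had 322 CPM in aSMC, 7.47 CPM in vSMC and 81.0 CPM in PC.

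In the list of myosin phosphorylation, 4 of 10 were higher in aSMC than in PC, where 1.22% of all genes were, and 0 were lower, with a median of 1.54. Mylk, the myosin light chain kinase, had 2477 CPM in aSMC, 955 CPM in vSMC and 476 CPM in PC. The other 3 encode parts of the myosin phosphatase: Ppp1r12b, a targeting subunit, had 1189 CPM in aSMC, 197 CPM in vSMC and 93.7 CPM in PC. Ppp1cb, the catalytic subunit, had 579 CPM in aSMC, 138 CPM in vSMC and 58.0 CPM in PC. Ppp1r12a, another targeting subunit, had 421 CPM in aSMC, 120 CPM in vSMC and 89.8 CPM in PC. Against vSMC, Ppp1r12b (2.57) and Ppp1cb (2.03) met the rule, 2 of 10 against 0.869% of all genes, with a median of 1.17. Genes of the kinase and of the phosphatase were thus both high in aSMC.

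The nearest relatives of the members mostly did not follow them. Of 13 measured related genes, 1 was higher and 1 lower in aSMC than in PC, with a median of -0.23, where 1.26% of measured genes were called lower. The higher was Tpm1, alpha tropomyosin, with 3641 CPM in aSMC, 2079 CPM in vSMC and 763 CPM in PC. The lower was Myh9, a nonmuscle myosin heavy chain, with 39.2 CPM in aSMC, 254 CPM in vSMC and 332 CPM in PC, the reverse of Myh11. Myh9 was also lower in aSMC than in vSMC (-2.55), where 1.08% of genes were, and 0 of the 14 relatives were higher. Actb, cytoplasmic beta actin, had 4920 CPM in aSMC, 4474 CPM in vSMC and 3921 CPM in PC, and Actg1, cytoplasmic gamma actin, 1273, 831 and 797 CPM in the same order.

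Actg2, smooth muscle gamma actin, had 103 CPM in aSMC from 9 of 41 cells, 0.159 CPM in vSMC and 0 reads in PC, and at most 0.399 CPM in any other type. Too few aSMC cells held it to meet the size rule. Myl6, a myosin essential light chain, had 1426 CPM in aSMC, 925 CPM in vSMC and 527 CPM in PC. The light chains Myl12a (405, 543 and 764 CPM) and Myl12b (246, 399 and 502 CPM) ran from low in aSMC to high in PC, opposite to Myl9. Tpm3 (25.6, 115 and 67.0 CPM) and Tpm4 (223, 649 and 501 CPM) were lowest in aSMC, unlike Tpm2. Cnn2 had 1123, 775 and 605 CPM and Cnn3 had 389, 545 and 458 CPM in aSMC, vSMC and PC, so neither of these calponins was confined to aSMC as Cnn1 was. Myh10 had 0.258 CPM in aSMC, 39.1 CPM in vSMC and 2.06 CPM in PC.

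SRF and its partners held no called gene, 0 of 7 in either direction against PC (median 0.77) and against vSMC (median 0.83). With 1.22% of all genes higher and 1.26% lower than in PC, and 0.869% higher and 1.08% lower than in vSMC, a count of 0 does not set the list apart. Srf itself had 16.2 CPM in aSMC, 5.72 CPM in vSMC and 7.38 CPM in PC, and was read in 8 of 41, 1 of 29 and 4 of 54 cells. Mrtfa and Mrtfb, which are listed as Mkl1 and Mkl2 and encode the actin-sensing partners of SRF, had 72.1 and 57.4 CPM in aSMC, 38.5 and 164 CPM in vSMC and 89.8 and 81.7 CPM in PC. Mkl2 was highest in aEC with 440 CPM.

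The calcium store list had 0 of 7 measured genes called in either direction against PC (median 0.15) and 0 of 7 against vSMC (median -0.37), which is likewise near the shares of all genes. Atp2a2, the calcium pump that phospholamban restrains, had 572 CPM in aSMC, 338 CPM in vSMC and 141 CPM in PC. Its difference from PC was 1.98, just under the rule, and 1 calcium gene of the 8 listed, Ryr3, had 0 reads in all 3 mural labels.

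The profile over the 9 types was then compared with that of other genes. Pearson's r of log2(CPM + 5) with the mean of the members was taken over the 9 types. It was 0.95 to 0.99 for Acta2, Tagln, Myh11, Tpm2, Lmod1, Pln and Myocd, 0.88 for Myl9, 0.77 for Cnn1 and 0.51 for Smtn. Each member is part of that mean, so its r is raised in advance and cannot be set beside that of other genes. The 6 other genes most like that mean were Uba2, Pdzrn3, Nrip2, Fgf1, Cap2 and Npy1r, with r of 0.97 to 0.98. Nrip2 had 878 CPM in aSMC, 506 CPM in vSMC and 15.2 CPM in PC. Npy1r, a receptor for the vasoconstrictor transmitter neuropeptide Y, had 455 CPM in aSMC and 24.9 CPM in PC. Fgf1, a fibroblast growth factor, had 381 CPM in aSMC, 84.7 CPM in vSMC and 5.61 CPM in PC. Cap2, an actin-binding protein, had 295, 154 and 26.6 CPM and Pdzrn3 had 101, 23.0 and 3.64 CPM in aSMC, vSMC and PC. Uba2, a subunit of the enzyme that activates SUMO, had 1174 CPM in aSMC, 421 CPM in vSMC and 245 CPM in PC, and 68.6 CPM in MG, the lowest of the 9 types.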

How the data were processed

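The authors deposited raw counts per gene and cell and a type label for each cell. The tools named are featureCounts, Subread 1.4.6-p5 and SAMtools 1.16.1, per the submitters' processing notes. The members and lists were chosen with earlier results of these data known. All 1235 cells were kept with their deposited labels, plates were read from the prefix of cell names, 0 columns were left out and no doublet caller was run.

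For each type the counts of its cells were added up and scaled to CPM, with differences on log2(CPM + 5), which understates the change of low genes. The 95% intervals are exact Poisson for sums and exact binomial (Clopper-Pearson) for shares of thinned cells. A gene was measured with over 5 CPM in either group. PCR reads are not independent molecules, and cells are not replicates, so no p-value was computed. Plate values need at least 5 cells of a type. Genes named are the 10 members, list genes that met the size rule for aSMC against PC or vSMC, the closest relatives, and the 6 genes of highest likeness. Scaling alternatives used TMM factors (edgeR 4.0.16) and size factors (DESeq2 1.42.0). Protein sequences were not used here. Some list genes that met the rule are counted and not reported here by name.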

Additional observations from a re-analysis of the deposited data

How the results depend on the processing

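The counts of members that met the size rule were recomputed under 16 settings in each of 5 comparisons, and 74 of the 80 counts stayed within 1.5 times the reported one. In aSMC minus vSMC the count was 5 without each gene's top cell, the one holding most of its reads, when Pln and Myocd joined. In aSMC against the next type it was 1 with equal weight per cell, 1 without plate s480s and 1 with an 8-fold rule, each without Lmod1, and it was 4 without each gene's top cell and 4 without plate s483s. Without plate s483s CP-EC, the next type for Smtn over all plates, had 3.56 CPM of Smtn in place of 390 CPM. The cause of these changes was not tested. In aSMC minus PC the count was 9 in every setting but the 8-fold rule, which gave 8. The sign of the members' log2 differences was kept in 120 of 120 values in 4 comparisons and in 118 of 120 for vSMC minus PC, where the exceptions were Cnn1 without its largest cells (-0.06) and without plate s483s (-0.0024). TMM scaling moved the median of all genes by 0.14 in aSMC minus PC, and DESeq2 size factors moved it by 0.11 there and by 0.18 in mural minus endothelial. Within-plate correlations, PC levels without single cells and levels without a plate were added after the data were seen. No paired analysis was possible because the values come from no test and each label is 1 sample. The cells of aSMC, vSMC and PC share the same 4 plates, and within-plate differences are given as values. Myocd rests on 13 reads and Cnn1 on 5 reads in PC, so differences of PC from other types at such levels are not detectable at this depth for Cnn1.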

Other observations

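In FB, a label of 9 cells, Myl9 had 492 CPM, of which 1 cell gave 34.1%, and 341 CPM without that cell, while 6 of the 9 cells reached 100 CPM. The pericyte marker sum was 4902 CPM in FB, against 14051 CPM in PC, but 4760 CPM of the FB sum came from Vtn alone. Of the other 6 markers, 3 had 1.56 to 3.13 CPM in FB, Abcc9 and Atp13a5 had no read, and the last gave most of the rest.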
